A study of Mus musculus with 16 samples.

Results

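The liver and the epididymal white fat of male mice sired by obese fathers were compared across all genes of a whole-transcript array. The 4 libraries titled Liver F1 were set against the 4 titled eWAT F1, which is 8 of the 16 samples of the series. The other 8, 4 Liver CT and 4 eWAT CT, are the same tissues from sons of lean fathers and served to show which of the genes that define a tissue were held. All animals were C57BL/6J males aged 14 weeks. The fathers of F1 males had eaten a diet rich in fat (45% lipid) from the age of 8 weeks, for 12 weeks, those of CT males chow, and all mothers were control females. Which father, litter or cage each male came from is not stated here. The p-values therefore reflect only how these samples vary, which may be technical.

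Liver and white fat handle the same lipids in opposite ways. Hepatocytes secrete plasma proteins and lipoproteins, make glucose, urea and bile acids, and burn fatty acids, under transcription factors such as HNF4A. Adipocytes store triglyceride in a single droplet coated by perilipin 1, take up fatty acids and glucose when insulin is high, release fatty acids and glycerol on fasting, and secrete adiponectin and leptin under PPARG and C/EBP factors.

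The deposited values are log2 levels. The libraries had medians of 5.22 to 5.24 in Liver F1 and 6.46 to 6.53 in eWAT F1, so the tissues appear to have been scaled apart, and all 16 were therefore quantile-normalized together before any comparison. Of 22206 probe sets, 15188 genes entered the tests, and all levels below are on this joint log2 scale. Every difference is liver minus eWAT, so that a positive value is higher in liver, and a difference of 1 is 2-fold. Probe sets respond differently, so no gene's level is set against another's. After normalization the correlation over genes was 0.982 to 0.986 between Liver F1 libraries, 0.984 to 0.991 between eWAT F1 libraries and 0.790 to 0.828 across the tissues.

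Several libraries carried transcripts of another tissue, and the list medians by library show them. The median of 21 genes for plasma carriers and protease inhibitors was 18.2 to 18.3 in the 4 Liver F1 libraries and 8.86, 11.76, 8.57 and 13.17 in eWAT F1 1 to 4, so eWAT F1 2 and 4 were high. In eWAT CT the same median was 6.31, 5.04, 11.35 and 10.82. The median of 17 genes of the exocrine pancreas was 11.22 in Liver F1 4 against 3.90 to 4.53 in Liver F1 1 to 3, and Amy2a5, pancreatic amylase, read 17.29 in Liver F1 4 against 6.74 to 7.49. The median of 9 seminal vesicle genes was 10.69 in eWAT F1 1 against 3.15 to 3.32 in eWAT F1 2 to 4. Among the CT libraries, the median of 8 sperm genes was 8.74 in eWAT CT 4 against 3.08 to 3.30 in eWAT CT 1 to 3, and 3.05 to 3.43 in the F1 libraries. The list of epididymal genes, the organ that eWAT is cut from, read 3.24 to 3.69 in all 8 F1 libraries, near the floor of 3.69 below which a gene counted as dim. Some results below, mainly of lists and counts, are also given without some of these libraries. Other results are given only with them, and the part of such RNA in those was not tested.

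**Figure D1:**
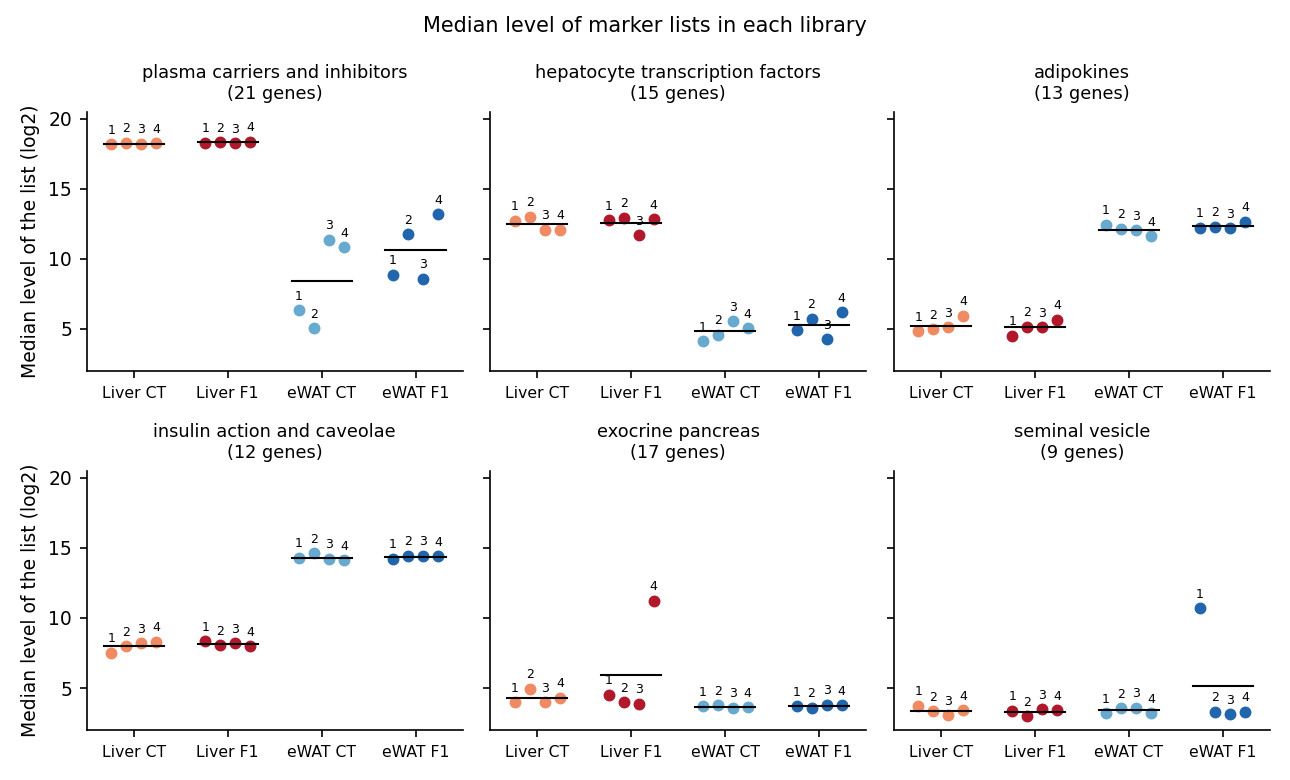
Median log2 level of 6 gene lists in each of the 16 libraries, as points numbered by replicate with a line at the mean of the 4, by tissue and paternal diet. The hepatocyte lists are high in all liver libraries and spread widely in eWAT, while 1 library each stands apart for exocrine pancreas (Liver F1 4, 11.22) and for seminal vesicle (eWAT F1 1, 10.69).

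A gene was taken to define a tissue where limma's adjusted p was under 0.05 and the difference was at least 4-fold. In offspring of obese fathers 1548 of 15188 genes, or 10.2%, defined liver and 2022, or 13.3%, defined eWAT. With no minimum fold, 31.9% of genes were higher in liver and 33.7% higher in eWAT at an adjusted p under 0.05. The 4 libraries of each tissue did not overlap at all for 1544 of the 1548 and for 2011 of the 2022. The defining genes of liver had a median difference of 3.80 and those of eWAT of -3.24, with 417 and 289 genes past 64-fold. The other tissue was near the floor for 152 of the liver-defining and 362 of the eWAT-defining genes, where a difference is a lower bound on the array. The median level of the liver-defining genes was 11.25, 11.23, 11.28 and 11.29 in Liver F1 1 to 4 against 6.07, 6.49, 5.97 and 6.74 in eWAT F1 1 to 4. The eWAT-defining genes read 5.94, 5.87, 5.82 and 5.86 in Liver F1 and 9.88, 10.02, 10.14 and 9.99 in eWAT F1. The balance between the tissues rests on the scaling. The median difference over all genes was 0.01 after joint normalization, -0.78 in the deposited values and 0.48 when each library was centred on its median, and the split of defining genes, liver to eWAT, became 1076 to 3499 in the deposited values and 2645 to 1607 with centring.

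The defining genes were largely those of the control offspring. In CT, 1604 genes (10.6%) defined liver and 2111 (13.9%) eWAT by the same rule, from 8 libraries that share no sample with F1. Of these, 1414 also defined liver in F1, or 88.2% of the CT list and 91.3% of the F1 list, and 1835 also defined eWAT, 86.9% and 90.8%. No gene defined 1 tissue in CT and the other in F1. Of the 190 liver genes of CT that missed the rule in F1, 182 were still higher in liver at an adjusted p under 0.05, and so were 268 of 276 in eWAT on its side. Those 190 and 276 genes had median differences of 1.74 and -1.75 in F1, just inside the 4-fold line, against 2.21 and -2.28 in CT. The 134 and 187 genes that met the rule in F1 alone sat on the other side of it, at 2.21 and -2.22 in F1 and 1.69 and -1.74 in CT. Across 15188 genes the differences in CT and F1 had a correlation of 0.98, as a description, since genes are not independent.

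**Figure D2:**
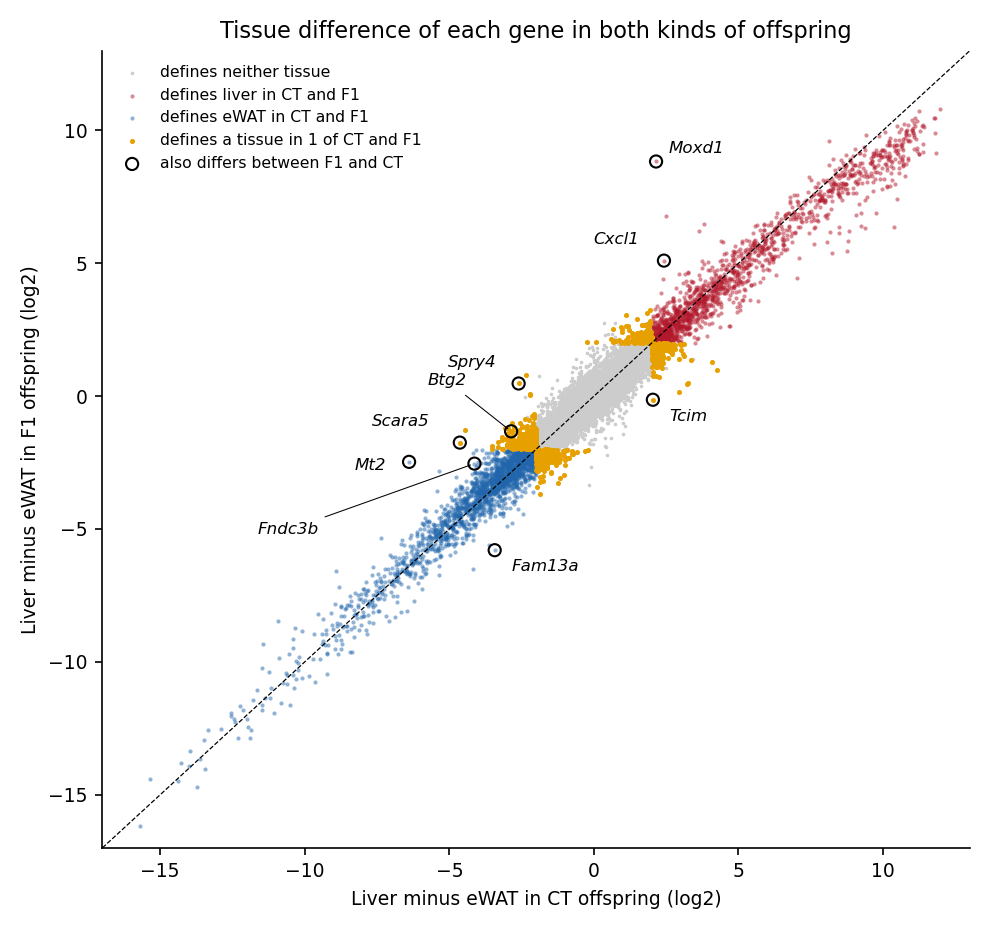
Liver minus eWAT difference (log2) of 15188 genes in CT (horizontal) and in F1 (vertical), with the 9 tissue-defining genes whose difference passed the test of F1 against CT circled and named. Most genes lie along the diagonal, and Moxd1 stands farthest above it at 2.15 in CT and 8.83 in F1.

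An overlap of calls does not show that a difference kept its size, so each gene's tissue difference in F1 was also set against that in CT in 1 fit over all 16 libraries. Only 12 of 15188 genes (0.079%) passed at an adjusted p under 0.05, and 9 of them were among the 4036 genes that defined a tissue in CT or F1. At an unadjusted p under 0.05 there were 1440 of all genes. A gene was called held where the 95% interval of its F1 minus CT change lay wholly within 2-fold, which 46.4% of all genes did. Of the 4036 defining genes 1279 were held: 580 of 1738 for liver (33.4%) and 699 of 2298 for eWAT (30.4%). For the other 2748 the interval reached past 2-fold without the test being passed, so with 4 libraries a group neither a held nor a changed difference was shown for them. The share held among defining genes was below that of all genes. Their standard errors were slightly larger, with a median of 0.36 for liver genes, 0.38 for eWAT genes and 0.34 over all genes. Their changes differed too, with a median of -0.23 for liver genes and 0.11 for eWAT genes against -0.01 over all genes. At an unadjusted limma p under 0.05 there were 273 of the 1738 liver genes and 378 of the 2298 eWAT genes. What lowered the share held was not tested.

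The genes most raised in liver over fat were enzymes, transporters and secreted proteins of hepatocytes. Hnf4a, the nuclear receptor that governs much of the hepatocyte programme, read 16.57, 16.27, 16.48 and 16.31 in Liver F1 1 to 4 and 5.22, 7.05, 3.55 and 7.87 in eWAT F1 1 to 4. The difference was 10.49 (SE 0.74, adjusted p = 2.729e-07 by limma), against 11.75 in CT. Abcb11, the pump that exports bile salts into the canaliculus, read 16.12, 15.63, 15.60 and 15.47 in liver and 4.83, 5.09, 4.23 and 6.73 in fat, a difference of 10.48 (SE 0.44, adjusted p = 4.281e-09). Tat, which starts tyrosine breakdown, read 19.18, 18.60, 19.24 and 18.60 against 7.09, 9.62, 7.44 and 10.61. In all 3 genes the liver libraries lay close together, and in fat libraries 2 and 4 read highest. The other genes among the 12 largest had differences of 10.17 to 10.81. They were Aldh8a1, an aldehyde dehydrogenase and the largest at 10.81 (SE 0.55), Dmgdh, which breaks down a choline product, Elovl2, an elongase of polyunsaturated fatty acids, Masp2, a protease of the lectin pathway of complement, Acsm1, a medium-chain acyl-CoA synthetase, and Hsd3b3, Saa4, Acnat1 and Cyp4a12a, which have close paralogues whose signals the probes may share. None of the 12 had an interval within 2-fold of CT.

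Secreted proteins made up the first 4 lists of liver functions. Of 20 plasma carriers and inhibitors tested 17 defined liver, with a median difference of 7.95 against 0.01 over all genes. Itih1, a hyaluronan-binding inhibitor chain, had 9.47 (SE 0.74), Fetub, a cystatin-family protease inhibitor, 9.45 (SE 0.47), Itih3 9.44 and Hrg, histidine-rich glycoprotein, 9.29 (SE 0.98). The apolipoprotein list gave 13 of 15 for liver and 1 for eWAT, with a median of 8.17. It was led by Apoa5 at 9.83, which promotes lipolysis of circulating triglyceride, Apof at 9.82, Lcat, which esterifies plasma cholesterol, at 9.02, and Mttp, which loads lipid onto apolipoprotein B, at 8.87. All 16 coagulation genes defined liver, with a median of 8.38, among them the clotting factors F9 at 9.57 and F11 at 9.25, the anticoagulant protease Proc at 9.48 and antithrombin, Serpinc1, at 8.97. Complement was mixed. Of 19 genes 11 defined liver and 2 eWAT, with a median of 3.48, led after Masp2 by Cfi at 9.83, C8a at 9.32 and Mbl1 at 8.99.

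Albumin itself did not meet the rule. Alb read 19.63, 19.63, 19.61 and 19.63 in Liver F1 and 17.38, 19.18, 16.95 and 19.39 in eWAT F1, a difference of 1.40 (SE 0.49, adjusted p = 0.0263). The liver values sit at the top of the scale, where 20 genes read 19.6 or more in all 4 Liver F1 libraries, and a difference cannot rise past it. In eWAT CT, Alb read 14.06, 12.07, 19.51 and 19.24. Other genes near the top were also not separated, and they are named here after their values were seen. Cyp2e1, an ethanol-oxidizing P450, read 19.10, 19.26, 19.30 and 19.30 in liver and 19.26, 18.94, 18.65 and 18.74 in fat (0.34, adjusted p = 0.126). Hp, haptoglobin, had a difference of -0.39 (adjusted p = 0.113), and Apoe, the ligand of lipoprotein remnant receptors, -0.29 (adjusted p = 0.118). Rbp4, the plasma carrier of retinol and also an adipokine, was 2.12 higher in liver (SE 0.23, adjusted p = 1.028e-05) and was held.

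The start regions of albumin and adiponectin, the best-known secreted products of the tissues, show what each gene carries there. They are the 250 bases before the RefSeq start in build GRCm38.p6, 5′ to 3′ on the plus strand, at chr5:90460620-90460869 for Alb and chr16:23146286-23146535 for Adipoq. Capitals mark matches on either strand to GTTAAT, a half-site of HNF1, CAAAGTCCA, a site of HNF4A, TTGCNNAA, a core of C/EBP sites, and the TATA box TATAAA.
Alb: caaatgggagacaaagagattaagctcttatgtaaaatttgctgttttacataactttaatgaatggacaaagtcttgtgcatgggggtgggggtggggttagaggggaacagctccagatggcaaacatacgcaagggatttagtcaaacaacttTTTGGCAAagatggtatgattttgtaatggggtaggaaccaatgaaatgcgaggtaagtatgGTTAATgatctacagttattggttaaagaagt
Adipoq: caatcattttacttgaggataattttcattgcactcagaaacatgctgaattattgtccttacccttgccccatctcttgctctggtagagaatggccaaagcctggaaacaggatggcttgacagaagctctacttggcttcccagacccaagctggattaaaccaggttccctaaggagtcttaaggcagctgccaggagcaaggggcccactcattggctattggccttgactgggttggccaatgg
The Alb stretch held GTTAAT, its first base at position -32 from the start, and TTGCNNAA at position -94, read on the opposite strand. The Adipoq stretch held none of these motifs, which says only that these letters are not in this window. Of 32851 mouse promoters of the same length in that table, 6.43% held GTTAAT, 9.56% TTGCNNAA, 0.38% CAAAGTCCA and 12.4% TATAAA. The table matched 79.6% of the liver-defining and 76.8% of the eWAT-defining genes, too few to compare the sets.

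Hepatocyte transcription factors were nearly all higher in liver. Of 15 hepatocyte factors 14 defined liver, with a median of 7.5. After Hnf4a came Creb3l3 at 8.70 (SE 0.31), a fasting-induced factor, Nr1i3, the xenobiotic receptor CAR, at 8.47 (SE 0.49), and Foxa2, a pioneer factor, at 8.15 (SE 0.45). Foxa2 read 12.40, 12.59, 10.37 and 11.17 in Liver F1 and 3.14 to 4.05 in eWAT F1. Liver F1 3 was lowest for it, and its median over the whole list was 11.66 against 12.73 to 12.92 in the other Liver F1 libraries.

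The metabolic lists of liver followed the same pattern. All 16 bile acid genes defined liver, with a median of 8.75. They included Abcc2, a canalicular conjugate exporter, at 9.97, Slc27a5, a bile acid-CoA ligase, at 9.47, and Acox2, which shortens the bile acid side chain, at 9.45. Of 16 drug-metabolising P450s 14 defined liver, at a median of 8.94, from Cyp2c70 at 9.95, which makes muricholic acids, to Cyp2j5 at 9.46, Cyp2d9 at 9.28 and Cyp3a25 at 9.25. All 16 genes of the urea cycle and amino acid breakdown defined liver, with a median of 8.79, among them Hgd, of tyrosine breakdown, at 9.91, and the urea cycle enzymes Otc at 9.64 and Cps1 at 9.19.

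Glucose and fatty acid oxidation genes were less uniform. Of 12 glucose genes 9 defined liver and 1 eWAT, with a median of 7.12. Fbp1 and G6pc, enzymes of glucose production, had 9.93 and 9.72, Gckr, the glucokinase regulator, 9.19, and Pklr, liver pyruvate kinase, 8.91. Of 13 genes of fatty acid oxidation and ketogenesis 10 defined liver, with a median of 3.63. Bdh1, of ketone body formation, had 9.77 (SE 0.54), Cyp4a10, an omega-hydroxylase and PPARA target, 9.14 (SE 0.65) and Cyp4a14, its paralogue, 6.38 (SE 1.04). Cyp4a14 read 12.25, 10.92, 7.96 and 13.04 in Liver F1 against 4.15, 3.40, 4.10 and 7.0 in eWAT F1. Liver F1 3 was lowest again, and the groups did not overlap. In CT the differences of Cyp4a10 and Cyp4a14 were 11.82 and 10.36. Their F1 minus CT intervals, -4.40 to -0.96 and -6.94 to -1.03, excluded 0 before adjustment only.

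The hepatocyte lists had smaller median differences in F1 than in CT. The median was 9.0 in CT and 7.95 in F1 for plasma carriers, 9.71 and 8.38 for coagulation, 10.09 and 8.94 for P450s and 10.01 and 8.79 for urea cycle genes. No gene of these lists passed the test of F1 against CT, and 3 of 20 plasma carriers, 0 of 16 coagulation genes and 0 of 16 P450s were held. The eWAT libraries moved with this. Hepatocyte genes were highest in eWAT F1 2 and 4 and in eWAT CT 3 and 4, with the list medians given above. Without eWAT F1 2 and 4, an alternative chosen after seeing the data, the F1 medians were 9.91 for plasma carriers, 9.73 for coagulation, 10.5 for P450s and 10.3 for urea cycle genes, and 18 plasma carriers defined liver. Leaving out the eWAT F1 libraries with the highest hepatocyte levels raises these medians by construction, and eWAT CT 3 and 4 stayed in CT, so these values are not set against CT. The part of those libraries in the gap between F1 and CT was not tested.

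**Figure D3:**
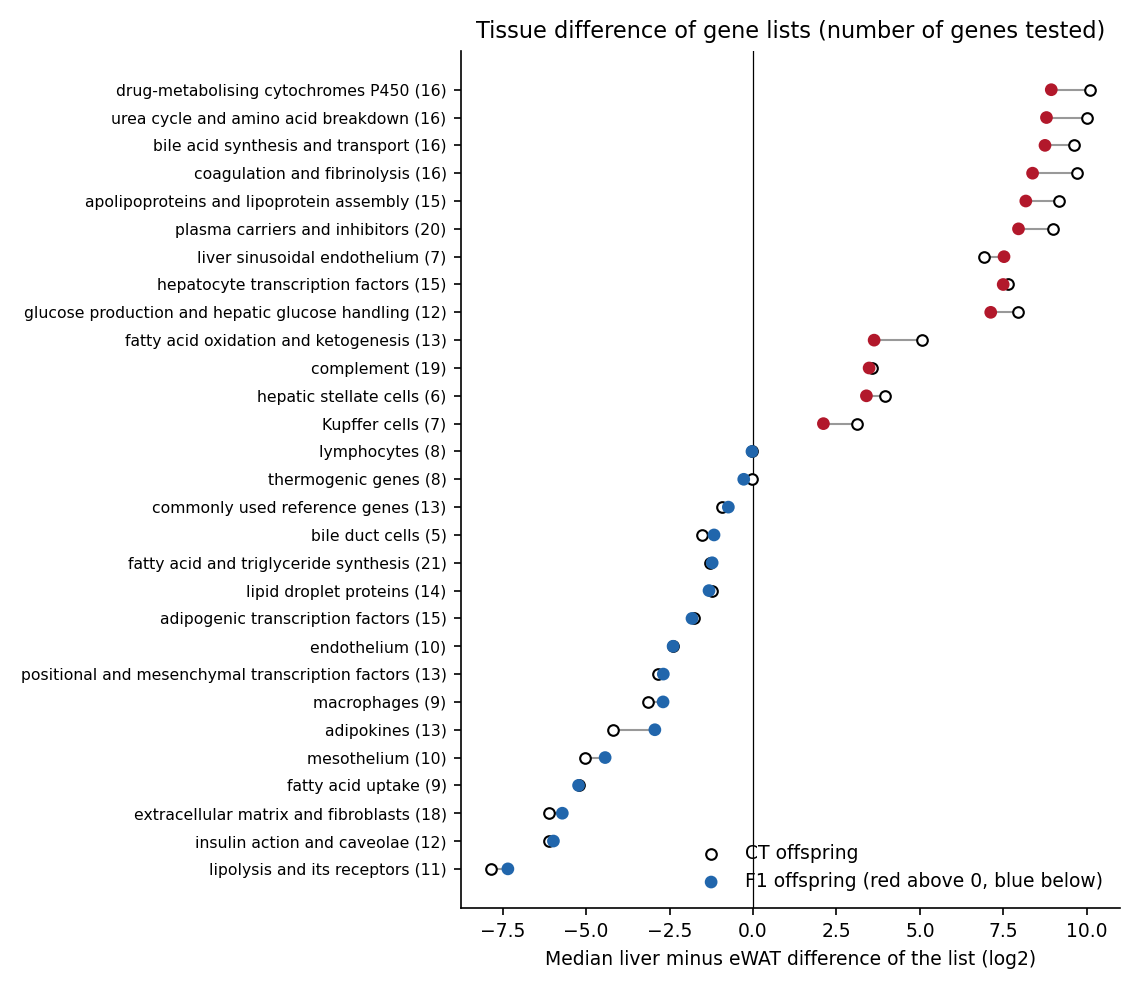
Median liver minus eWAT difference (log2) of 29 gene lists in CT (open points) and F1 (filled points). The hepatocyte lists lie at the right with F1 nearer to 0 than CT, as for plasma carriers at 7.95 and 9.0, and the matrix, lipolysis and insulin action lists lie at the left.

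Adipocyte genes gave the widest gaps between the tissues. Adipoq, adiponectin, read 19.61, 19.45, 19.54 and 19.42 in eWAT F1 1 to 4 and 3.35, 3.77, 2.93 and 3.29 in Liver F1 1 to 4. Its difference of -16.17 (SE 0.20, adjusted p = 5.12e-12 by limma) was the largest of either sign, against -15.68 in CT. Plin1, the perilipin that coats the fat droplet and gates lipolysis, read 18.16, 18.13, 18.35 and 18.06 in fat and 3.66, 3.58, 2.94 and 3.62 in liver, a difference of -14.72 (SE 0.20). For both genes the liver values were at or near the floor, and the fat libraries lay close together.

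Lep, leptin, had a difference of -14.42 (SE 0.30, adjusted p = 4.542e-11). It read 16.58, 17.22, 17.30 and 18.18 in eWAT F1, where CT eWAT read 18.59, 18.66, 18.23 and 17.69, and stayed between 2.68 and 3.22 in Liver F1. The tissue difference was 0.92 smaller in size than in CT, with an interval of 0.05 to 1.80, and did not pass after adjustment (adjusted p = 0.505). Aqp7, the glycerol channel of adipocytes, had -12.87 in F1 against -11.89 in CT, a change of -0.98 with an interval of -1.49 to -0.47 (adjusted p = 0.207). Retn, resistin, read 17.99, 17.37, 17.51 and 16.91 in eWAT F1 and 3.56 to 4.0 in Liver F1, a difference of -13.65 in F1 and -13.63 in CT. It was held, as were Nnat, an imprinted proteolipid gene (-14.49), and Trarg1, a regulator of GLUT4 traffic (-13.91). The other genes among the 12 largest were Lgals12, an adipocyte galectin (-14.05), Aoc3, a surface amine oxidase (-13.79), Slc1a5, a glutamine transporter (-13.36), Prkar2b, a regulatory subunit of protein kinase A (-12.94), and Scn7a, of the sodium channel family (-12.86). None of these was held.

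The lists of adipocyte functions were mixed. Of 13 adipokines 9 defined eWAT and none liver, with a median of -2.94. Sfrp5, a secreted WNT inhibitor, varied most among the leading members, at 6.42, 9.02, 9.79 and 12.65 in eWAT F1 against 2.73 to 3.17 in liver (-6.57, SE 0.98). Of 14 lipid droplet proteins 7 defined eWAT and 4 liver. Cidec, which fuses droplets, had -12.55 and Plin4 -10.48, whereas Hsd17b13, a droplet protein of hepatocytes, had 9.27. Of 11 genes of lipolysis and its receptors 9 defined eWAT, with a median of -7.35, led after Prkar2b and Aqp7 by Npr3, the natriuretic peptide clearance receptor, at -11.65, and Hcar1, the lactate receptor, at -10.62.

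Transcription factors of fat cells were split. Of 15 adipogenic factors 7 defined eWAT and 1 liver, with a median of -1.83. Ebf1, an early B-cell factor that also drives adipocyte formation, had -9.81 (SE 0.32), Zfp423, a preadipocyte factor, -7.59, Ebf2 -6.99 and Pparg, the master regulator of adipocyte formation, -6.96 (SE 0.27). Of 13 positional and mesenchymal factors tested, of 18 on the array, 9 defined eWAT and none liver. Hoxc8 had -11.81 and Hoxc6 -8.33, the latter held, and Wt1, a factor of visceral mesothelium and its descendants, had -4.68.

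Uptake and storage of fatty acids followed. Fabp4, the fatty acid carrier of adipocytes, had -12.15 (SE 0.23), Lpl, lipoprotein lipase, -9.15 (SE 0.50), Cd36, a fatty acid translocase, -8.76 and Slc27a1 -8.49, and the last 2 were held. In all, 6 of 9 uptake genes defined eWAT, with a median of -5.23 in both F1 and CT. Lpl ran from 9.16 in Liver F1 3 to 11.99 in Liver F1 1, while fat was at 19.57 to 19.74. Of 21 genes of fatty acid and triglyceride synthesis 9 defined eWAT and 2 liver, with a median of -1.22. Pnpla3 had -9.62, Gpat3, which starts glycerolipid synthesis, -6.73 and Fasn, fatty acid synthase, -4.12 (SE 0.42). Mlxipl, the glucose-sensing factor ChREBP, was higher in liver at 4.16 (SE 0.21) and was held.

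Genes of insulin action and caveolae, the membrane pits abundant in adipocytes, were held most often among the adipocyte lists. Of 12 genes 10 defined eWAT, and 9 of the 12 were held, with medians of -5.98 in F1 and -6.12 in CT. Cavin1, a coat protein of caveolae, read 18.21, 18.20, 18.42 and 18.53 in eWAT F1 and 7.93, 7.58, 7.48 and 7.24 in Liver F1, a difference of -10.79 against -10.74 in CT. The interval of the change was -0.74 to 0.65. Ehd2, which stabilizes caveolae, had -12.27, Cav1, caveolin 1, -8.69 and Cav2 -7.95, of which Cav2 was held. No set test was run, so the share is a description beside the 46.4% of all genes.

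Thermogenic genes were mixed. Ucp1 and Dio2 were dim, and of the 8 tested 3 defined liver and 1 eWAT. Elovl3, an elongase shared by brown fat and liver, was 9.32 higher in liver. Cidea read 6.91, 4.67, 4.80 and 5.09 in eWAT F1 and 2.91 to 3.52 in liver (-2.09, SE 0.43), highest in eWAT F1 1. The count defining eWAT was 0 without eWAT F1 1 and Liver F1 4, and 2 without eWAT F1 2 and 4.

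Stromal and immune genes separated the tissues as well. In bulk tissue, fewer cells of a type and less RNA per cell cannot be told apart. Of 18 matrix and fibroblast genes 16 defined eWAT and 1 liver, with a median of -5.71. Col3a1, a fibrillar collagen, had -8.19 and Sparc, a matrix glycoprotein, -7.08, both held, beside Col15a1 at -7.63 and Col6a1 at -7.5. Of 10 mesothelial markers 8 defined eWAT, with Upk3b at -9.70, Lrrn4 at -9.07 and Gpm6a at -6.76, and 2 liver, among them Krt18, a keratin of hepatocytes too, at 6.55. Endothelial genes were higher in eWAT (6 of 10 defining, median -2.39), with Cldn5 at -4.68, Vwf at -3.22, and Pecam1 at -3.55 and Cdh5 at -3.44 both held. Of 7 markers of liver sinusoidal endothelium 4 defined liver, Oit3 at 8.5, Clec4g at 7.90, Dnase1l3 at 7.57 and Stab2 at 7.52. Lyve1, also a lymphatic marker, defined eWAT at -3.51, and Fcgr2b (0.37, adjusted p = 0.0649) and Stab1 (-0.09, adjusted p = 0.738) did not pass.

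Resident macrophages differed by tissue. Of 7 Kupffer cell markers 4 defined liver and 2 eWAT, with Cd5l at 7.68, Clec4f at 7.32, the latter held, Vsig4 at 5.25, and Cd163 at -2.34. Of 9 general macrophage genes 6 defined eWAT, led by Itgam at -5.96, the lysozyme gene Lyz2 at -5.34, Itgax at -3.95 and Cd14 at -3.26. Itgax, an integrin of fat-tissue macrophages and dendritic cells, read 6.09, 6.61, 7.4 and 9.20 in eWAT F1, highest in eWAT F1 4, and 3.24 to 3.59 in Liver F1. No lymphocyte gene of 8 reached 4-fold. Cd3e, a T-cell receptor subunit, had -1.88 and Cd79b, of the B-cell receptor, -1.50, while Cd4 had 1.05 but -0.225 in the deposited values. Of 6 stellate cell genes 4 defined liver, with Lrat, which esterifies retinol, at 6.74, Reln at 4.78 and Hhip at 3.66, and 2 eWAT, including Rgs5, a pericyte gene, at -3.65. Of 5 bile duct genes 2 defined eWAT, Krt19 (-4.18) and Krt7 (-2.81), both also made by mesothelium.

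Genes of neighbouring organs were checked in the same way. No epididymal gene of 5 tested reached 4-fold, with Rnase9 at 1.40 and Gpx5 at 0.84. Try5 and Cela3b, pancreatic proteases, defined liver at 3.05 and 2.64, but Try5 read 11.03 in Liver F1 4 against 4.69 to 4.93 in the other liver libraries, and Cela3b 9.33 against 3.90 to 5.05. Without Liver F1 4 and eWAT F1 1 no pancreatic gene defined liver and the list median moved from 1.85 to -0.01. Svs2, a seminal vesicle secretion, read 16.37 in eWAT F1 1 and 3.15 to 3.35 in eWAT F1 2 to 4, and the list had a median of -2.01 with eWAT F1 1 and Liver F1 4 and 0.09 without. Of 9 skeletal muscle genes 2 defined eWAT, Myl1 (-5.15, held) and Acta1 (-3.63). Another 3 passed as higher in liver by under 4-fold, and the median difference was 0.67. The median level of the 13 muscle genes on the array was 5.31, 5.09, 3.59 and 3.62 in Liver F1 1 to 4. It was 3.59 to 4.13 in eWAT F1. Alas2, of erythroid haem synthesis, was 2.20 higher in liver.

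Genes often used to normalize PCR data were not all level between the tissues. By limma, 2 of 13 were higher in liver and 7 in eWAT at adjusted p under 0.05, beside 31.9% and 33.7% of all genes. Only Pgk1 passed 4-fold, at 2.44 (SE 0.17), beside 10.2% of all genes for liver and 13.3% for eWAT. Of the 13, 10 were held, beside 46.4% of all genes, and the median difference was -0.74. Gusb had -1.49 and Hprt -1.36. Actb, beta-actin, had -1.78 (SE 0.18) after joint normalization but 0.14 when libraries were centred on their medians.

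Paralogous genes with related jobs were higher in opposite tissues for most pairs. The 24 pairs were listed with a liver member and a fat member each. Of 16 with both members measured, 11 split in direction, and 9 split with each member at least 4-fold higher in its assigned tissue. The fat members Elovl3 (9.32) and Cpt1b (1.80) were higher in liver. The fat members Lpin1 (-0.18) and Pygm (-0.60) and the liver member Acacb (0.63) did not pass. Fabp1, the fatty acid carrier of liver, read 16.34, 16.71, 16.69 and 16.98 in Liver F1 and 7.25, 10.26, 7.62 and 12.10 in eWAT F1, a difference of 7.37 (SE 0.88). Fabp4 read 7.53, 7.6, 7.45 and 8.46 in Liver F1 and 19.93, 19.91, 19.91 and 19.9 in eWAT F1. Neither gene's groups overlapped. The glycerol channels gave the widest gap, 8.59 for Aqp9, the route into hepatocytes, and -12.87 for Aqp7, the route out of adipocytes.

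The droplet proteins and transporters split likewise. Cideb, which works in lipoprotein lipidation, had 8.41 and Cidec -12.55. Plin5, the perilipin of oxidative tissues, had 4.76 and Plin1 -14.72. The acyl-CoA synthetase transporters Slc27a2 and Slc27a1 had 9.11 and -8.49. Slc2a2, the insulin-independent glucose transporter GLUT2, read 16.20, 17.19, 17.57 and 17.52 in liver and 6.64, 9.43, 7.13 and 10.56 in fat (8.68, SE 0.75). Slc2a4, the insulin-responsive GLUT4, read 3.93, 4.38, 4.21 and 4.70 in liver and 12.42, 11.57, 11.52 and 11.27 in fat (-7.38, SE 0.27). The pyruvate kinases Pklr and Pkm had 8.91 and -5.80, and the nuclear receptors Ppara, of fatty acid oxidation, and Pparg 7.11 and -6.96. Fat libraries 2 and 4 again read highest for the liver members Fabp1 and Slc2a2.

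**Figure D4:**
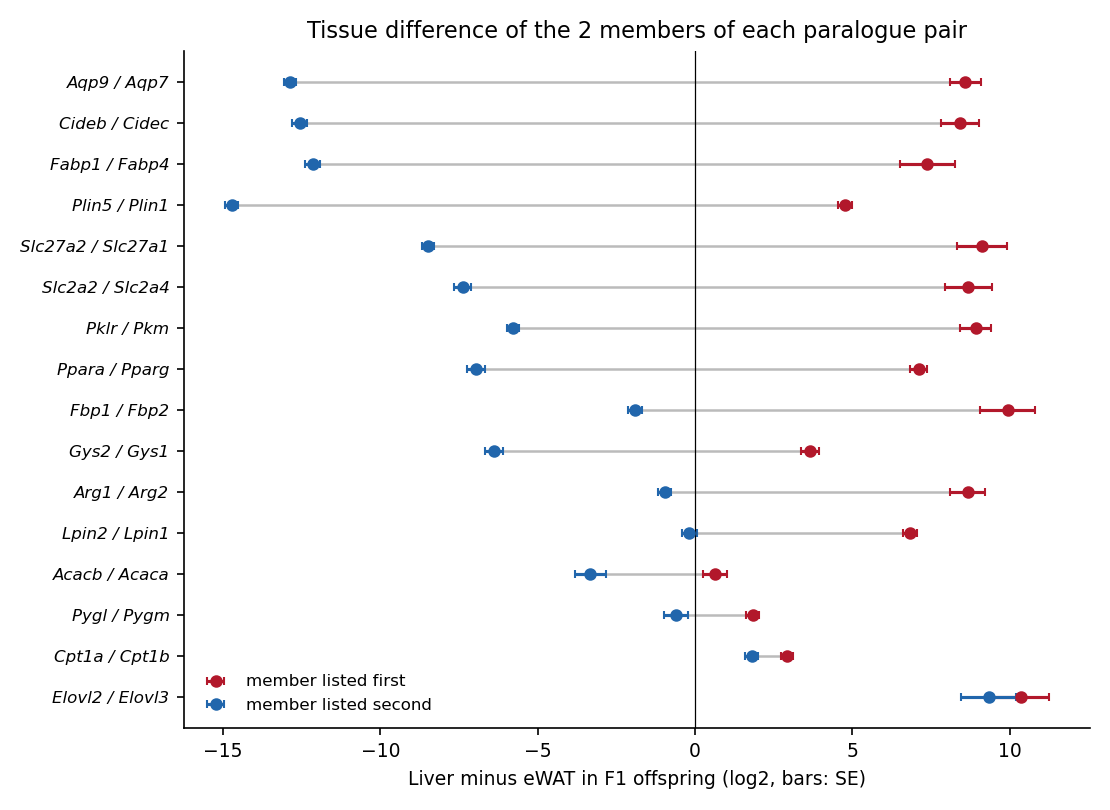
Liver minus eWAT difference (log2) in F1, with its standard error, for both members of 16 paralogous pairs, ordered by the gap between them. From the Aqp9 and Aqp7 pair at the top, with 8.59 and -12.87, the members of 9 pairs lie past 4-fold on opposite sides of 0.

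Few tissue-defining genes passed the test of F1 against CT. Moxd1, a monooxygenase-like protein of the secretory pathway, had the largest change, and it was in liver. It read 13.59, 14.99, 14.56 and 13.51 in Liver F1 against 7.65, 7.01, 5.53 and 6.38 in Liver CT, and 4.61, 6.26, 5.08 and 5.38 in eWAT F1 against 4.35 to 4.65 in eWAT CT. The tissue difference was 8.83 in F1 and 2.15 in CT, a change of 6.68 with an interval of 5.42 to 7.95 (adjusted p = 5.155e-05 by limma), and it passed under all 28 settings tried.

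Scara5 and Mt2 lost part of their eWAT bias. Mt2, a metal-binding metallothionein with a close paralogue, read 12.07, 12.49, 12.58 and 11.17 in Liver F1 against 6.99, 7.45, 7.13 and 8.53 in Liver CT, with 14.25 to 15.24 in eWAT F1. Its difference went from -6.39 in CT to -2.47, a change of 3.92 with an interval of 2.83 to 5.0 (adjusted p = 0.00549). Scara5, a scavenger receptor that binds ferritin, read 10.11, 9.76, 10.36 and 10.08 in Liver F1 against 6.2, 6.54, 6.49 and 7.07 in Liver CT. The difference went from -4.64 to -1.75, under 4-fold, a change of 2.89 with an interval of 1.96 to 3.82 (adjusted p = 0.0125). In both genes every Liver F1 library exceeded every Liver CT library, and the eWAT groups overlapped.

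Spry4 and Tcim defined a tissue in CT and did not pass in F1 after joint normalization, while both passed in F1 as higher in eWAT in the deposited values. Spry4, a feedback inhibitor of receptor tyrosine kinase signalling, read 7.65, 8.58, 8.41 and 8.71 in eWAT F1 against 9.82, 10.05, 10.22 and 9.62 in eWAT CT. In liver it read 8.27, 9.28, 9.22 and 8.5 in F1 and 7.96, 6.93, 6.93 and 7.47 in CT. The difference went from -2.60 to 0.48 (adjusted p = 0.186, but -0.785 with adjusted p = 0.0317 in the deposited values), a change of 3.08 with an interval of 2.20 to 3.96 (adjusted p = 0.00549). F1 and CT did not overlap in either tissue. Tcim, a small transcriptional regulator, read 8.88, 9.04, 9.73 and 8.97 in Liver F1 against 11.09, 11.52, 10.60 and 11.39 in Liver CT, with 8.85 to 9.55 in all eWAT libraries. The difference went from 2.04 to -0.14 (adjusted p = 0.61, but -1.34 with adjusted p = 0.000195 in the deposited values), a change with an interval of -2.87 to -1.48 (adjusted p = 0.0125).

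Cxcl1, Fndc3b and Fam13a kept their tissue with another size. Cxcl1, a neutrophil chemokine, read 8.29, 9.62, 8.52 and 7.87 in Liver F1 against 6.25, 6.36, 6.38 and 5.12 in Liver CT. Its difference was 5.10 in F1 and 2.42 in CT (adjusted p = 0.0374 by limma). The eWAT means were 3.47 in F1 and 3.605 in CT, under the floor of 3.69, so both differences are lower bounds. Fam13a, a regulator of adipocyte metabolism linked to fat distribution in people, read 16.32, 16.24, 16.30 and 16.16 in eWAT F1 against 14.67, 14.01, 14.30 and 15.33 in eWAT CT. In liver it read 10.22 to 10.60 in F1 and 10.39, 11.35, 11.5 and 11.35 in CT, a mean change of -0.69. Its difference went from -3.43 to -5.80, a change of -2.37 with an interval of -3.16 to -1.57 (adjusted p = 0.0177). Fndc3b, a membrane protein of the fibronectin type III family, went from -4.13 to -2.54 (adjusted p = 0.0374). Btg2, an antiproliferative early-response gene outside the naming rule, went from -2.86 to -1.32 (adjusted p = 0.0467). A setting counted for a gene only where the gene both passed and defined a tissue in CT or F1 under it. Of these genes, Fam13a counted under 22 of 28 settings, Cxcl1 and Fndc3b under 13 and Btg2 under 11. Mt2, Spry4, Scara5 and Tcim counted under 27, 27, 26 and 20. Tcim, at 2.04 in CT, lay near the 4-fold line, so a setting that did not count for it need not be a failed test.

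**Figure D5:**
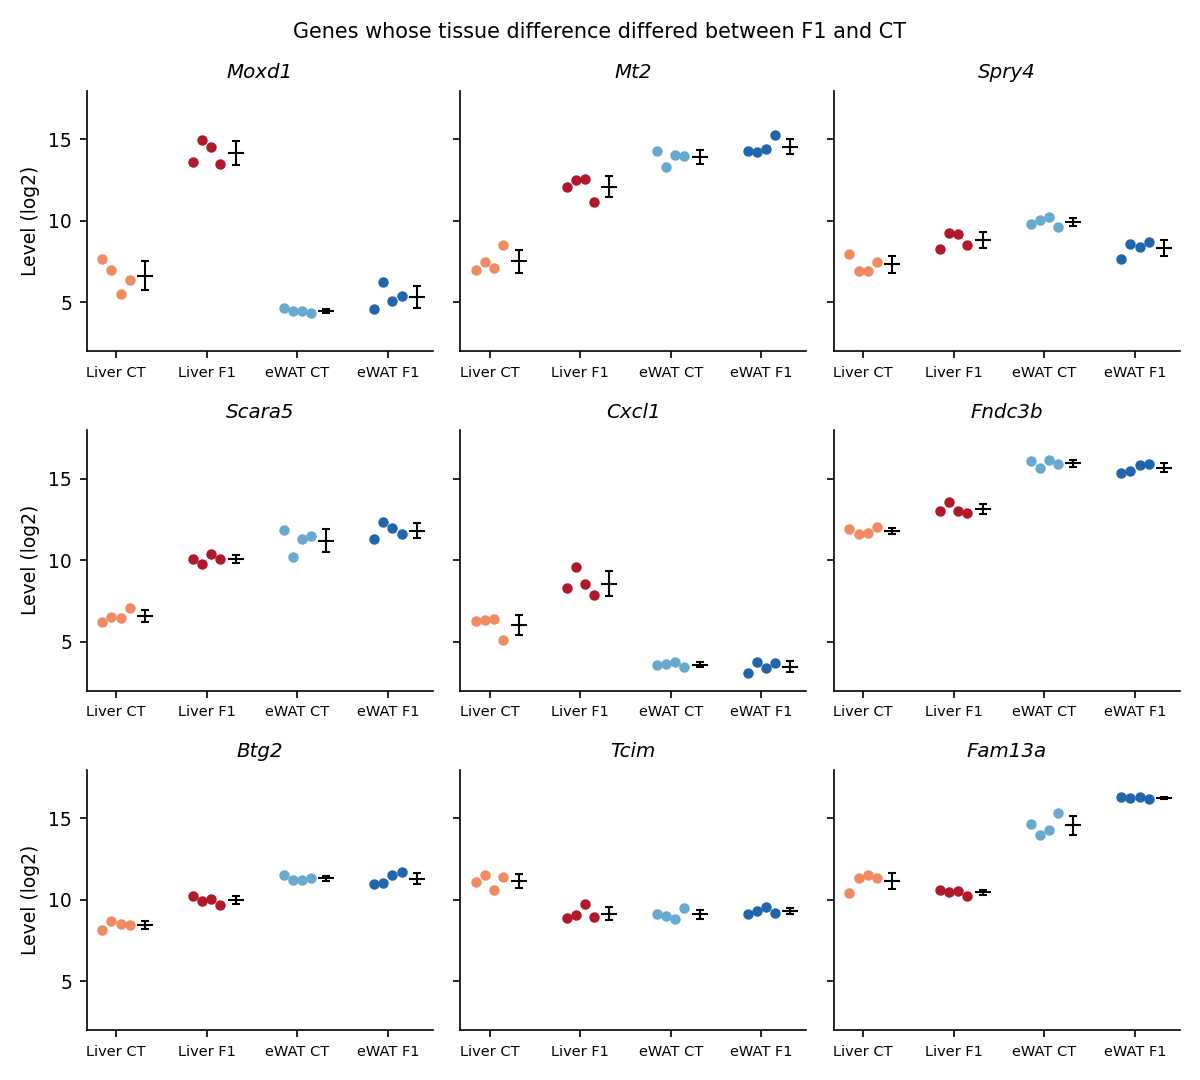
Log2 level in each library of the 9 tissue-defining genes that passed the test of F1 against CT, by tissue and paternal diet, with the mean and SD of 4 libraries. Moxd1, Mt2, Scara5 and Cxcl1 are higher in every Liver F1 library than in any Liver CT library, and Fam13a is higher in every eWAT F1 library than in any eWAT CT library.

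Among changes below 0, the naming rule also took genes of smallest p that did not pass. They were Egln3, an oxygen-sensing hydroxylase (3.90 in CT, 2.25 in F1, adjusted p = 0.0899), Hsd17b11 (2.33 and 1.08, adjusted p = 0.123), Aqp8, a hepatocyte water channel (9.74 and 8.17, adjusted p = 0.131), and Pdgfrl (2.95 and 0.14, or -0.88 in F1 in the deposited values, adjusted p = 0.149). Outside the defining genes H4c3, Mme and Skap2 passed, and they are named after their values were seen. H4c3, a histone H4 gene, had a change of -1.38, Mme, neprilysin, of -1.67 and Skap2, an adaptor protein, of 1.38, between tissue differences of under 4-fold in both arms. The major urinary protein genes, a family of near-identical copies, were also among those that defined liver in CT alone. Mup2 read 19.6 in all Liver F1 libraries and 18.6 ± 1.29 (SD, n = 4) in eWAT F1, so its signal was at the top of the scale in liver and high in fat. In eWAT CT 1 to 4 Mup2 read 13.74, 11.46, 17.59 and 18.73, and its F1 minus CT change did not pass (adjusted p = 0.526 by limma). Its highest eWAT libraries, CT 3 and 4 and F1 2 and 4, were also those highest for hepatocyte genes.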

How the data were processed

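RNA of frozen liver and epididymal fat was labelled and hybridised to whole-transcript Affymetrix arrays, 1 library a sample. The deposited log2 values are RMA levels, and per the submitters' processing notes the authors made them with Transcriptome Analysis Console 4.0; the genome build is not given in the sources used here. Arrays have no read depth, so their number limits the precision.

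All 16 libraries were quantile-normalized together with limma 3.58.1 in R 4.3.3. Of 22206 probe sets 19572 had 1 gene symbol and 2634 none; the brightest stood for a gene, and 15188 genes with a mean at or above the 25th percentile were kept. Groups came from the titles. Tissue differences were fitted within F1 and within CT, and their difference over all 16 libraries, with lmFit, eBayes and Benjamini-Hochberg adjustment. Of 482 list entries 422 were on the array and 398 kept. The members and lists were chosen with earlier results of these data known.

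Genes were named by rule: up to 12 per direction by difference among defining genes without overlap, up to 6 per direction of the F1 minus CT change by p, up to 4 per list by difference, and up to 8 pairs by gap, passing over unnamed models and small RNAs. The fit was tested on simulated data. Scaling, filter, fold, weighting, a replicate block and leaving out libraries were tried as alternatives.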

Additional observations from a re-analysis of the deposited data

Results flagged for a closer look

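A list or gene counts here where 1 library of a group of 4 lay farther from the others than Dixon's 95% limit. Among 150 such groups 8 had a lone library, and chance marks about 5% of groups. The median level of the exocrine pancreas list was 11.22 in Liver F1 4 and 3.90 to 4.53 in the others. The seminal vesicle list was at 10.69 in eWAT F1 1 and 3.15 to 3.32 elsewhere in eWAT F1. The complement list was at 9.55 in eWAT F1 1 against 10.22 to 10.32. The hepatocyte transcription factors were at 11.66 in Liver F1 3 against 12.73 to 12.92. The thermogenic list was at 5.0 in Liver F1 1 against 3.97 to 4.11. Liver F1 1 was also highest for Elovl2, at 18.39 against 17.89 to 17.94, and for Acsm1, at 16.85 against 16.44 to 16.50. Plin1 was lowest in Liver F1 3, at 2.94 against 3.58 to 3.66.

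The tissue difference itself differed between F1 and CT, by the adjusted limma test over all 16 libraries, for 12 genes. The F1 minus CT change was 6.68 for Moxd1, 3.92 for Mt2, 3.08 for Spry4, 2.89 for Scara5, 2.68 for Cxcl1, 1.59 for Fndc3b, 1.54 for Btg2 and 1.38 for Skap2. It was -2.37 for Fam13a, -2.17 for Tcim, -1.67 for Mme and -1.38 for H4c3.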

How the results depend on the processing

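Counts moved with the scaling and the fold, and the named genes little: of 167 named genes 141 kept direction and side of the threshold under the other scalings, the percentile rank, the replicate block and the F1 libraries left out. The filters, priors, weights, fold and probe choice were tried on the counts only. Genes defining liver in F1 (higher in liver F1 than in eWAT F1) numbered 2645 with each library centred on its median, 833 by percentile rank and 3303 at 2-fold. Genes defining eWAT in F1 (higher in eWAT F1 than in liver F1) numbered 3499 in the deposited values, 1145 by rank, 3797 at 2-fold and 1339 with limma's treat. Liver-defining genes of CT that also define liver in F1 numbered 2177 of 2494 when centred, 755 of 873 by rank and 2843 of 3362 at 2-fold. As reported they were 1414 of 1604. EWAT-defining genes of CT that also define eWAT in F1 numbered 3135 of 3535 in the deposited values and 998 of 1205 by rank. They were 3419 of 3891 at 2-fold and 1199 of 1439 with treat, against 1835 of 2111 as reported. Leaving out 1 library in turn gave 1535 to 1565, 2014 to 2048, 1403 to 1426 and 1819 to 1865 for these counts. Tissue-defining genes of CT or F1 with the 95% interval of the F1 minus CT tissue difference inside 2-fold numbered 1973 of 5079 as deposited. They were 3191 of 8090 at 2-fold, against 1279 of 4036 as reported, and 1099 to 1247 with 1 library left out.

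Tissue-defining genes of CT or F1 whose tissue difference differs between F1 and CT, 9 as reported, numbered 3 by rank, 14 with a trended robust prior and 4 to 12 with 1 library left out. They were 4 without eWAT CT replicate 3 and 5 without eWAT F1 replicate 1. They were also 5 without both eWAT F1 2 and 4, and 4 without both Liver F1 4 and eWAT F1 1, alternatives chosen after seeing the data. The cause was not tested.

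With the replicate block 3 genes differed (Moxd1, Spry4 and Tcim) and 6 did not pass (Mt2, Scara5, Fam13a, Cxcl1, Fndc3b and Btg2), and the counts of defining genes were 1548 and 2022. Same-numbered libraries deviated together with correlations of 0.03 to 0.04 in F1, low values that alone neither show nor exclude pairs. The labels do not say whether liver and eWAT of 1 number come from 1 male. Every F1 library was closest to its own number, 4 of 4 in each tissue, and 2 of 4 in CT, which is a hint from the data, so a pairing is not settled here.

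The tissue difference changed sign in the deposited values for Spry4 (-0.785), Pdgfrl (-0.88), Skap2 (-0.71), Cd4 (-0.225), Sox9 (-0.10) and Slc4a1 (-0.76). It did so with median centring for Lcn8 (1.21), Actb (0.14), Prm1 (0.74) and Akap4 (1.30). For Svs2 it ran from -3.35 to 1.06 with 1 library left out, the latter without eWAT F1 replicate 1, and was 0.77 without both Liver F1 4 and eWAT F1 1. Values at the ceiling or floor of the arrays bound a difference and do not size it.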
